A study of Mus musculus with 10 samples.

Results

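The 10 genes described here encode the transcription factors that commit, maintain and end B-cell identity, namely Tcf3, Tcf4, Ebf1, Pax5, Sfpi1, Ikzf1, Irf4, Irf8, Bcl6 and Prdm1. They were listed by symbol and found as 10 of the 22380 protein-coding genes in the GENCODE annotation of NCBIM37 (mm9). Their H3K27me3, trimethylation of lysine 27 on histone H3, was read from ChIP-seq peak lists of 5 mouse lymphoma lines, with 1 list per line. All 5 lines carry the Eµ-Myc transgene and are Cdkn2a-/-, on the C57BL/6J background. In this model the Eµ enhancer of the antibody heavy-chain locus drives Myc, and it is active in B-lineage cells. The Parental line came from a lymphoma of such a mouse. The resistant lines were cells that survived mafosfamide, an alkylating agent active in culture, as its dose was raised step by step. R100 was taken at 100 nM on day 10, R500 at 500 nM on day 18, R1000 at 1000 nM on day 23 and R4000 at 4000 nM on day 37, although the culture is also described as lasting 34 days. The study grew the cells for ChIP-seq without mafosfamide. The resistant lines derive in series from a single Parental line, and no list has a replicate here, so no difference between lines was tested and a difference in cells cannot be told apart from a difference between libraries.

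H3K27me3 is deposited by the polycomb repressive complex PRC2, and it usually lies at the start of genes that are silent or held at low expression. In B-cell development, the E proteins encoded by Tcf3 and Tcf4 act with Ebf1 and Pax5 to switch on the B-cell programme, while Sfpi1 and Ikzf1 act earlier, in the shared progenitors of lymphoid and myeloid cells. Bcl6 maintains germinal centre B cells, and Irf4 and Prdm1 drive the exit to plasma cells, where the B-cell programme is shut down. A peak marks where the histone modification was called and does not measure expression, and the 50 values below give the bases of each gene that lay inside peaks.

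The value of a gene is the number of bases covered by distinct peaks from 5 kb upstream of its transcription start site (TSS, the 5′ end of the annotated gene) to the end of the gene. Peak ends fall on multiples of 50 bp, and a gene was called covered at 150 bp or more, which is 3 grid steps. The depth of the libraries is unknown. The Parental list held 10778 distinct peaks. R100 and R500 had longer lists of 25180 and 21888 peaks, in which each peak was entered 2 times, and R1000 and R4000 had shorter ones of 9595 and 6820 peaks, entered once as in the Parental list. List length thus moves with the values of single genes. Its part in them was not tested, and lists of equal number are given beside the counts. Those keep the 6820 widest peaks of each list, so R4000 keeps all its peaks while longer lists lose their narrower ones.

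The following stretches are the parts of peaks shared by the most lines, within 2 kb of the TSS where there was one, with no base from an untranslated region. They are examples of the DNA the peaks covered, and leaving out untranslated bases can change its make-up. In Ikzf1 the part shared by 3 lines was all untranslated and is not printed. All are from NCBIM37 (mm9), 5′ to 3′ on the strand of the gene, with CpG dinucleotides in capitals. Bcl6 and Ebf1 have a second stretch, chosen after the values had been seen, as was the step beyond 2 kb for Prdm1 and Sfpi1. The second stretch of Ebf1 also lies beyond 2 kb, from 2432 to 2681 bp downstream of the TSS. Tcf4 had no peak.
Bcl6, first intron, chr16:23987151-23987350, minus strand, all 5 lines: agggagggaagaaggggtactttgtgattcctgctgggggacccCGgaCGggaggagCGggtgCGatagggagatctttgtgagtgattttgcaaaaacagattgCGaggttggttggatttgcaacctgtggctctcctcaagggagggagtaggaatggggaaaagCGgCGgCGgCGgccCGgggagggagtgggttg
Bcl6, first intron, chr16:23987851-23987950, minus strand, all lines but R4000: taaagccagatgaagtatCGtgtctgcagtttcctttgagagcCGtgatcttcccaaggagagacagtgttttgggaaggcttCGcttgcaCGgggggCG
Ebf1, intron, chr11:44432701-44432800, plus strand, R100 and R500: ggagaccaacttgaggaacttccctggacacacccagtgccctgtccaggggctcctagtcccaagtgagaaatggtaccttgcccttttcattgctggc
Ebf1, intron, chr11:44433251-44433500, plus strand, R100 and R500: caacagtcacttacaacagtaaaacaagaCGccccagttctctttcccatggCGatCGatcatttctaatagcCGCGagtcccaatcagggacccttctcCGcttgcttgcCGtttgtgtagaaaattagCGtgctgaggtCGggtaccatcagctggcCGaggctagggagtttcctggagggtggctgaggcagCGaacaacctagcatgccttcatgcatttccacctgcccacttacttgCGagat
Tcf3, intron, chr10:79895401-79895450, minus strand, R100 and R500: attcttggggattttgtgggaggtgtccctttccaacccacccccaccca
Ikzf1, intron, chr11:11586472-11586550, plus strand, R100 and R500: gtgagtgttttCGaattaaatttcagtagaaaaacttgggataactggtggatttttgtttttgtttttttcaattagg
Irf8, intron, chr8:123260601-123260750, plus strand, R100: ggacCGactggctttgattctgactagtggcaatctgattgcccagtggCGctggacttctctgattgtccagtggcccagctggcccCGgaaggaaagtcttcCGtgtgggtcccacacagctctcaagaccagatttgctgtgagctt
Irf4, coding exon, chr13:30842501-30842550, plus strand, R100 and R4000: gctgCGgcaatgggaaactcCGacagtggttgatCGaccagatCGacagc
Prdm1, intron, chr10:44176951-44177050, minus strand, R500 and R4000: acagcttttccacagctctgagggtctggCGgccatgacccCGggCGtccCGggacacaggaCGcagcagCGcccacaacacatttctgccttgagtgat
Sfpi1, intron, chr2:90937601-90937700, plus strand, R100: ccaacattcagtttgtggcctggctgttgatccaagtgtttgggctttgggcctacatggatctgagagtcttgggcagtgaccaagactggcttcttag
Pax5, upstream of the TSS, chr4:44726151-44726200, minus strand, R1000 and R4000: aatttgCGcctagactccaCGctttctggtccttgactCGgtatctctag

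The stretches differ in CpG content. The Bcl6 stretch present in every line has 10 CpG in 200 bp and a GC content of 59.0%, and the longer Ebf1 stretch has 12 CpG in 250 bp at 52.8% GC. The stretches in Tcf3, Sfpi1 and the shorter one in Ebf1 have 0 CpG. In windows of 300 bp centred on the best covered stretch within 2 kb of the TSS, the 7 genes that had one held a median of 11 CpG, against 16 over the 7807 protein-coding genes with any peak there. Their median GC content was 54.0%, against 58.3%. The window of Ikzf1 held 25 CpG at 58.3% GC, whereas its printed stretch of 79 bp has 1 CpG at 29.1% GC. The letters CAGGTG, the E-box bound by E proteins, were searched on both strands and were found in 2 of the 7 windows, those of Ebf1 and Pax5, against 25.3% of all such windows. The longer Ebf1 stretch also holds these letters, on the opposite strand. GGAA, the core bound by PU.1 and other Ets factors, was found on either strand in 7 of 7 windows and in 96.3% of all.

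In the Parental line only Bcl6 had an H3K27me3 peak, and the other 9 genes had 0 covered bases. In R100 and in R500, 7 of the 10 genes were covered by at least 150 bp, and in R1000 and R4000 this was again only Bcl6. Of all protein-coding genes, 21.7% were covered in R100 and 17.0% in R500, against 7.67% in the Parental line, 8.86% in R1000 and 7.05% in R4000. The count of 1 of 10 in the Parental line and the high-dose lines was thus close to the share over all genes, and the count of 7 of 10 in R100 and R500 was well above it. This closeness depended on the minimum of 150 bp. With any covered base, 5 of 10 genes in R1000 and 6 of 10 in R4000 were counted, against 16.1% and 14.0% of all protein-coding genes, while the Parental line stayed at 1 of 10 against 12.9%. With at least 500 bp covered, R500 had 1 of 10 genes against 8.87% of all, and R100 had 3 of 10 against 9.96%. The genes covered in R100 were Tcf3, Ebf1, Sfpi1, Ikzf1, Irf4, Irf8 and Bcl6, and in R500 Prdm1 stood in place of Sfpi1.

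**Figure D1:**
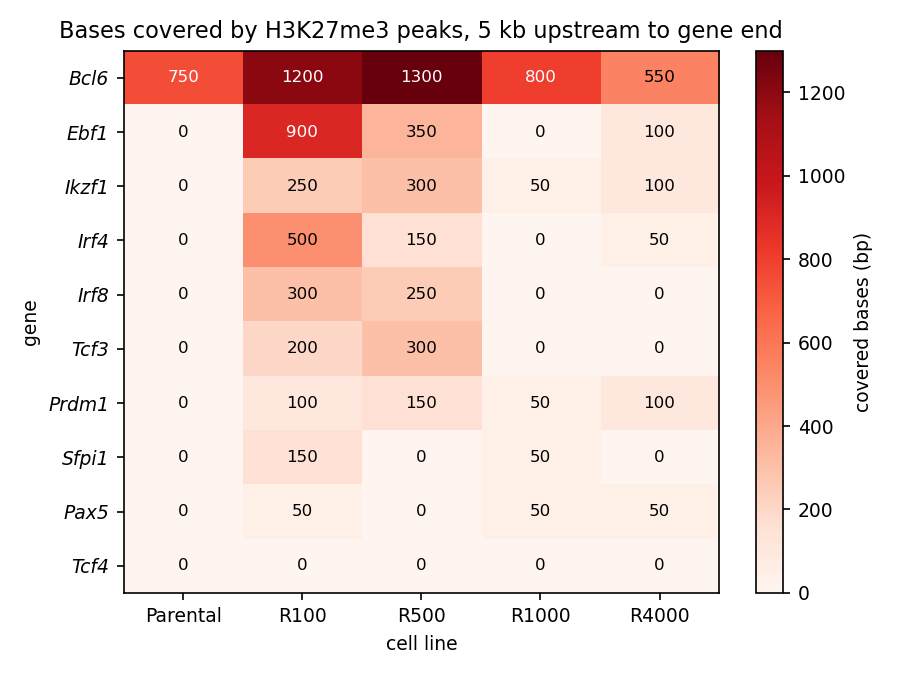
Bases covered by H3K27me3 peaks (colour and printed value, bp) for 10 genes (rows, ordered by their sum) in 5 lines (columns), 1 peak list per line. Bcl6 is the only gene with covered bases in the Parental line (750 bp), most others have their highest values in R100 or R500, and Tcf4 is at 0 in all lines.

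Tcf3 encodes E2A, the E protein that starts the B-cell programme. Its gene (chr10:79872259-79896392, minus strand) had 200 bp covered in R100 and 300 bp in R500, with 0 bp in each of the Parental, R1000 and R4000 lines. Both low-dose lines were thus above the threshold, and both high-dose lines matched the Parental line in having no peak. The R500 peak, 300 bp wide, lay in an intron from 942 to 1241 bp downstream of the TSS, and the wider R100 peak from 842 to 991 bp. The 2 peaks share 50 bp, the stretch printed above, which is 25% of the R100 bases and 16.7% of the R500 bases. Tcf4 encodes E2-2, the E protein best known from plasmacytoid dendritic cells and also present in B cells. It had 0 covered bases in every line although its window of 349 kb is the second longest of the set. No covered base in any line was the state of 57.2% of all protein-coding genes, and of 50.9% of the 2535 genes with windows over 100 kb.

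Ebf1, the factor that acts beside E2A to specify the lineage, had the widest peaks after Bcl6. The gene (chr11:44430819-44821593, plus strand) had 0 bp covered in the Parental and R1000 lines, 900 bp in R100, 350 bp in R500 and, at the highest dose, 100 bp in R4000. All 350 bp of R500 lay inside R100 peaks, where they made up 38.9% of the covered bases. The widest R100 peak spanned 600 bp, from 2382 to 2981 bp downstream of the TSS, and the R500 peak inside it 250 bp. The 100 bp of R4000 were 2 peaks of 50 bp that lay elsewhere, starting 309782 and 388432 bp downstream of the TSS, the second in an exon at the far end of the gene. A pseudogene entry with the symbol Ebf1 overlaps the 5′ end and was not counted.

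Pax5, which commits cells to the B lineage, stood near the floor of the measurement. Its gene (chr4:44544017-44724318, minus strand) had 50 bp covered in each of R100, R1000 and R4000, and 0 bp in the Parental line and R500. Each value is a single grid step. The R1000 and R4000 peaks are the same 50 bp, at -1882 to -1833 bp from the TSS, and the R100 peak is intronic, starting 31268 bp downstream.

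Sfpi1 encodes PU.1, whose dose steers progenitors between the myeloid and B-cell fates. The gene (chr2:90922547-90955913, plus strand) had 150 bp covered in R100 and 50 bp in R1000, against 0 bp in the other lines, so that R100 only just met the threshold. Its 3 peaks lay from 14554 to 15153 bp downstream of the 5′ end of the annotated gene, but from 164 to 763 bp downstream of the start of a coding transcript. Ikzf1 encodes Ikaros, a zinc finger factor needed for lymphoid development. The gene (chr11:11585006-11672929, plus strand) had 250 bp covered in R100 and 300 bp in R500, then 50 bp in R1000 and 100 bp in R4000, with 0 bp in the Parental line. It was the only one of the 9 genes at 0 in the Parental line, other than Prdm1, to have a peak in all 4 resistant lines. The R100, R500 and R4000 peaks shared 50 bp that span the start of a coding transcript, 1442 bp into the gene, and R100 and R500 shared 150 bp (60% of the R100 bases and 50% of the R500 bases). The R1000 peak lay apart, from 2095 to 2144 bp downstream of the TSS.

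Irf4 and Irf8 are interferon regulatory factors that pair with PU.1 on DNA, with Irf4 needed for plasma cells and Irf8 for myeloid and early B-cell development. Irf4 (chr13:30841095-30858796, plus strand) had its highest value in R100, with 500 bp covered, against 150 bp in R500, 50 bp in R4000 and 0 bp in the Parental and R1000 lines. Its 4 R100 peaks ran from -294 to 1505 bp from the TSS, and the outermost of them lay in a coding exon that also held the R4000 peak. Irf8 (chr8:123260258-123280594, plus strand) had 300 bp covered in R100 and 250 bp in R500, and none of the other lines had a peak (0 bp). In both genes R100 and R500 had no base in common. The R100 and R500 peaks in the first kilobase of Irf8 touch end to end, from 343 to 492 bp and from 493 to 592 bp downstream of the TSS. The covered bases of Irf8 also lie in the window of Gm20388, a gene model that overlaps it.

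Bcl6, the germinal centre repressor, was covered in all 5 lines, as were 4.35% of all protein-coding genes. The gene (chr16:23965138-23988938, minus strand) had 750 bp covered in the Parental line. It had 1200 bp in R100 and 1300 bp in R500, and then 800 bp in R1000 and 550 bp in R4000. Relative to the Parental line this is 1.60 times in R100, 1.73 times in R500, 1.07 times in R1000 and 0.733 times in R4000, in each of the low-dose lines less than the ratio over all protein-coding genes (3.43 and 3.01). A stretch of 200 bp in the first intron, from 1588 to 1787 bp downstream of the TSS, was covered in every line, and around it the peak spanned 200, 650, 550, 350 and 450 bp in the order of the lines from Parental to R4000. R4000, which had the fewest Bcl6 bases, thus had a wider central peak than the Parental line and 4 of the 6 Parental peaks had no R4000 peak over them. All 550 bp of R4000 lay inside R500 peaks, where they made up 42.3% of the bases. Upstream of the TSS, R4000 had 0 bp covered, while the Parental line had 250 bp, R100 had 300 bp, R500 had 200 bp and R1000 had 150 bp.

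Prdm1 encodes Blimp-1, which represses the B-cell programme in plasma cells and stands in mutual repression with Bcl6. It had little coverage. The gene (chr10:44156983-44248307, minus strand) had its highest value in R500, with 150 bp covered, against 100 bp in both R100 and R4000, 50 bp in R1000 and 0 bp in the Parental line. Its 5 peaks lay together, from 71257 to 71656 bp downstream of the 5′ end of the annotated gene but from 1443 to 1842 bp downstream of the start of a coding transcript. R500 and R4000 shared a peak of 100 bp, which is 66.7% of the R500 bases and 100% of the R4000 bases. R1000 and R100 shared 50 bp, which is 100% of the R1000 bases and 50% of the R100 bases.

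The peaks of the 10 genes lay mostly downstream of a start site. Of 66 peaks, 15 were upstream of the TSS, 39 were intronic, 7 were fully and 5 partly exonic. Each window held 5 kb upstream against 17.7 kb (Irf4) to 391 kb (Ebf1) of gene, which leaves more room downstream. The same split was not made for the peaks of all genes, so it is not a trait shown for these 10. Bcl6 alone held 26 of the 66, and a place with a peak in several lines was counted once for each line. The midpoint lay within 2 kb of the start of a coding transcript for 52 of the 66, namely 5 of 6 Parental peaks, 21 of 24 for R100, 14 of 18 for R500, 7 of 10 for R1000 and 5 of 8 for R4000. Among all peaks in the windows of protein-coding genes, 54.9%, 63.5%, 61.1%, 69.8% and 74.1% lay that close to a start of any gene, in the same order. For the 10 genes only starts of the gene itself were counted, so the rule for all peaks was the more lenient. Upstream of the TSS alone, over 5 kb, the 10 genes showed almost nothing. Bcl6 was then the only gene with at least 150 bp in the Parental line, R100, R500 and R1000, and no gene had this in R4000. The shares of all protein-coding genes covered in that window were 3.64%, 9.13%, 8.16%, 3.93% and 2.73% in the order of the lines. The count of 7 genes in R100 and R500 therefore rests on bases within the genes.

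**Figure D2:**
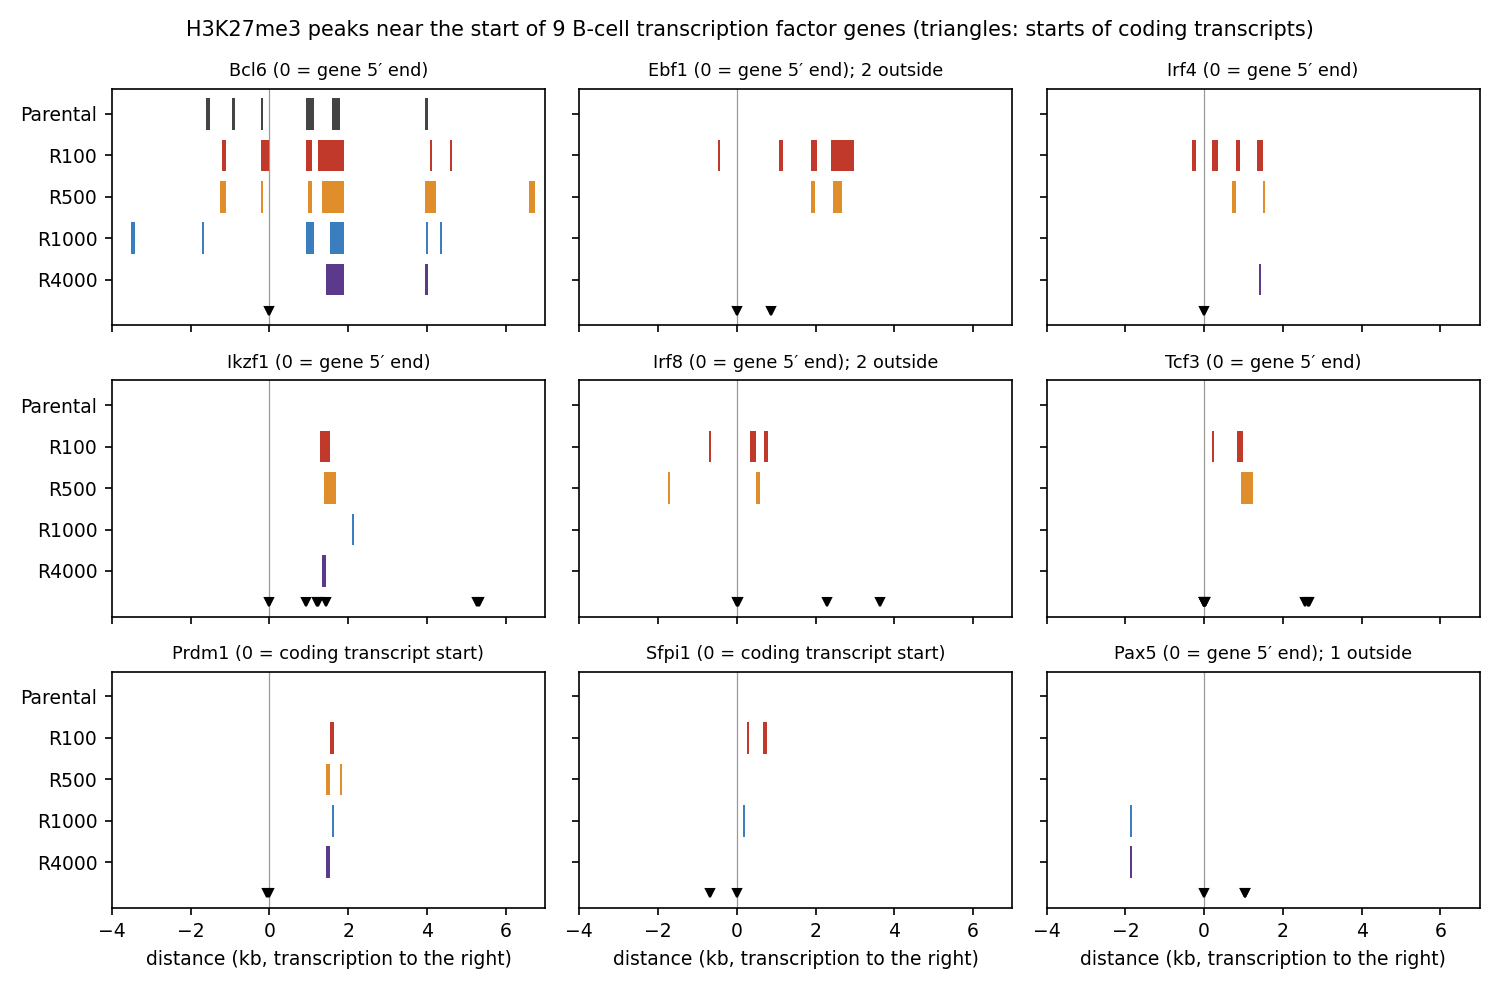
Positions of H3K27me3 peaks (coloured bars, 1 row per line) against distance in kb from the gene 5′ end, or from the start of a coding transcript for Prdm1 and Sfpi1, with transcription to the right and coding transcript starts as triangles. Only the Bcl6 panel has Parental peaks, and the R100 and R500 bars lie mostly within 3 kb downstream of a start.

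With a difference of at least 150 bp as the call, R100 and R500 each exceeded the Parental line at 7 of the 10 genes, against 20.3% and 15.5% of all protein-coding genes. No gene had at least 150 bp fewer in R100 or R500, where the shares of all genes were 0.666% and 0.63%. In R1000 no gene of the 10 passed in either direction, against 4.83% of all genes with more and 3.38% with fewer bases. In R4000 no gene had at least 150 bp more (2.96% of all genes) and Bcl6 alone had fewer (5.02% of all genes). For the other 9 genes, fewer bases than the Parental line could not be seen, since they had none there.

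The pattern of no covered base in the Parental line, at least 150 bp in R100 or R500 and under 150 bp in both R1000 and R4000 was shown by Tcf3, Ebf1, Sfpi1, Ikzf1, Irf4, Irf8 and Prdm1. These are 7 of the 10 genes, against 11.0% of all protein-coding genes. Sfpi1 in R100 and Prdm1 in R500 only just met the minimum, and Prdm1 had 100 bp in both R100 and R4000. When only the 6820 widest peaks of each list were kept, Sfpi1, Irf4, Irf8 and Prdm1 had 0 bp in R100 and R500. R4000 then kept even peaks of 50 bp, while R100 lost the Irf4 peaks of 150 bp, so the lines were cut at unlike widths. Tcf3, Ebf1 and Ikzf1 still showed the pattern with these lists, for which its share over all protein-coding genes was not computed. Covered in both R100 and R500 and without a base in the Parental line were Tcf3, Ebf1, Ikzf1, Irf4 and Irf8, 5 of the 10, against 4.87% of all. Irf4 in R500 was at the minimum of 150 bp. With peaks at least 100 bp wide, Irf4 and Irf8 each had 100 bp in R500 and fell below it. Long windows hold more peaks, so the genes were also read by length. Among the 6033 protein-coding genes with windows of 20 to 50 kb, 24.5% were covered in R100 and 18.3% in R500, against 5 and 4 of the 5 genes Tcf3, Sfpi1, Irf4, Irf8 and Bcl6. With windows of 50 to 100 kb, 27.4% and 21.3% of all genes were covered, against 1 and 2 of the 2 genes Ikzf1 and Prdm1. With windows over 100 kb, 28.6% and 23.8% of all genes were covered, against 1 of 3 in both lines, which was Ebf1. In the class of 20 to 50 kb the genes of the set were thus covered more often than the class as a whole, and over 100 kb the counts were near those of the class.

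Summed over the 10 genes, 3650 bp were covered in R100 and 2800 bp in R500, against 750 bp in the Parental line, 1000 bp in R1000 and 950 bp in R4000. In the order R100 to R4000 these sums are 4.87, 3.73, 1.33 and 1.27 times the Parental sum, against 3.43, 3.01, 1.11 and 0.759 times over all protein-coding genes. The Parental sum is Bcl6 alone, so these ratios compare many genes with a single gene. Without Bcl6 the sums were 0, 2450, 1500, 200 and 400 bp in the order of the lines. Of each 10000 bases covered in a list, the 10 genes held 8.85 in R4000, against 7.25 in R100, 6.18 in R500, 6.20 in R1000 and 4.60 for the Parental list, so relative to the length of its list R4000 was not low. Without Bcl6 this measure was 0 for the Parental list, 4.87 for R100, 3.31 for R500, 1.24 for R1000 and 3.73 for R4000, so R100 was then the highest and R1000 the lowest of the resistant lines. The median over the 10 genes was 0, 225, 200, 25 and 50 bp in the order of the lines, and over all protein-coding genes it was 0 bp in every line. When only the 6820 widest peaks of each list were kept, 1, 3, 4, 1 and 1 of the 10 genes were covered in the order of the lines, against 6.77%, 14.1%, 12.5%, 8.07% and 7.05% of all protein-coding genes.

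**Figure D3:**
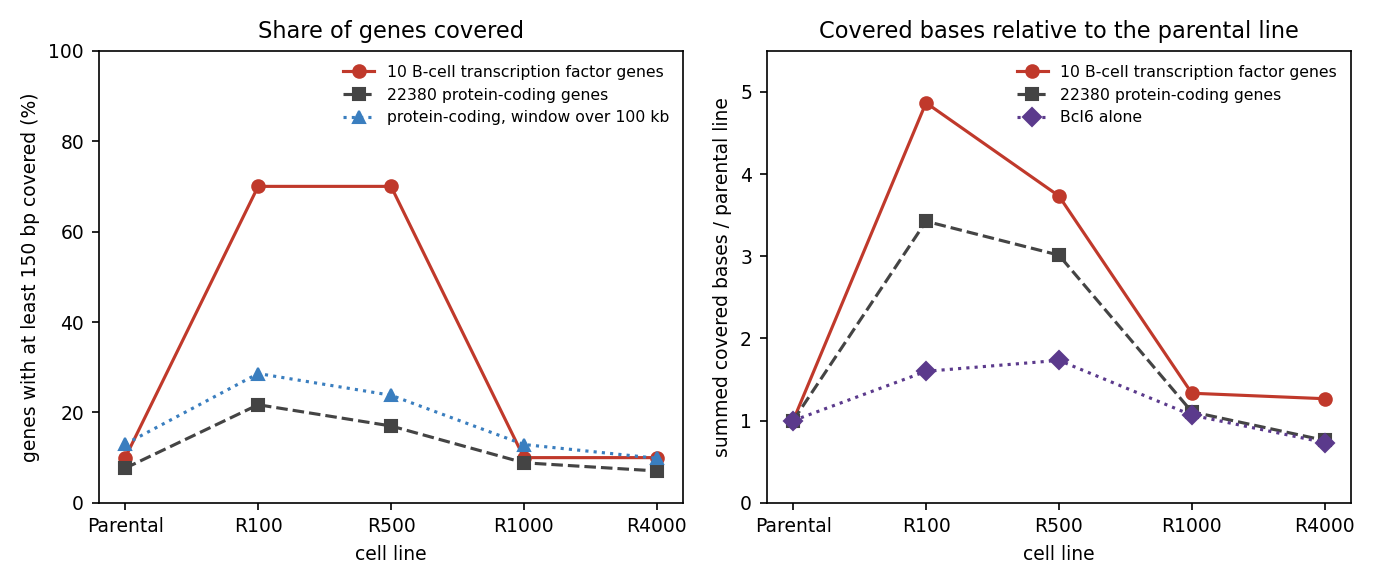
Left, share of genes (%) with at least 150 bp covered in each line for the 10 genes (circles), all protein-coding genes (squares) and those with windows over 100 kb (triangles). Right, summed covered bases divided by the Parental value for the same 10 genes (circles), all protein-coding genes (squares) and Bcl6 alone (diamonds), with 1 list per line and no error. The 10 genes reach 7 of 10 in R100 and R500, and Bcl6 alone stays at or below 1.73 times.

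Other genes of the B-cell programme were looked up from lists drawn by symbol. Of 18 genes for factors that work beside the 10, such as Tcf12, Ets1 and Foxo1, 6 were covered in R100, 3 in each of R500 and R1000, 2 in R4000 and 0 in the Parental line. The shares of 33.3% in R100 and 16.7% in R500, against 21.7% and 17.0% of all protein-coding genes, lie nearer to the background than the shares of the 10 genes do. In R1000 and R4000 they were 16.7% and 11.1%, against 8.86% and 7.05%. Bcl11a, a zinc finger factor required for B-cell development, had 0, 900, 1150, 200 and 450 bp in the order of the lines. Tcf12, the gene for the third E protein HEB, had 50, 500, 450, 250 and 200 bp. It therefore differed from Tcf3 and Tcf4 in being covered in R1000 and R4000 as well. Myb had 0, 100, 300, 0 and 100 bp, while Xbp1, Mef2c and Ikzf2 had no peak in any line. These are 3 of the 18 genes, against 57.2% of all protein-coding genes.

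Of 21 genes for B-cell receptor components and surface markers, none (0) was covered in the Parental line, while R100 had 6, R500 had 7, R1000 had 3 and R4000 had 4. As shares these are 0%, 28.6%, 33.3%, 14.3% and 19.0% in the order of the lines, against 7.67%, 21.7%, 17.0%, 8.86% and 7.05% of all protein-coding genes. Cd24a, a surface marker of developing B cells, had 0, 600, 950, 400 and 150 bp. Cd79b, a signalling chain of the B-cell receptor, had 0, 1000, 150, 150 and 0 bp. No peak was called in any line at 8 of the 21 genes, among them Cd79a and Ms4a1, against 57.2% of all protein-coding genes. The labels give the source as B cell, and since the lists do not measure expression, this identity could not be checked from marker transcripts.

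**Figure D4:**
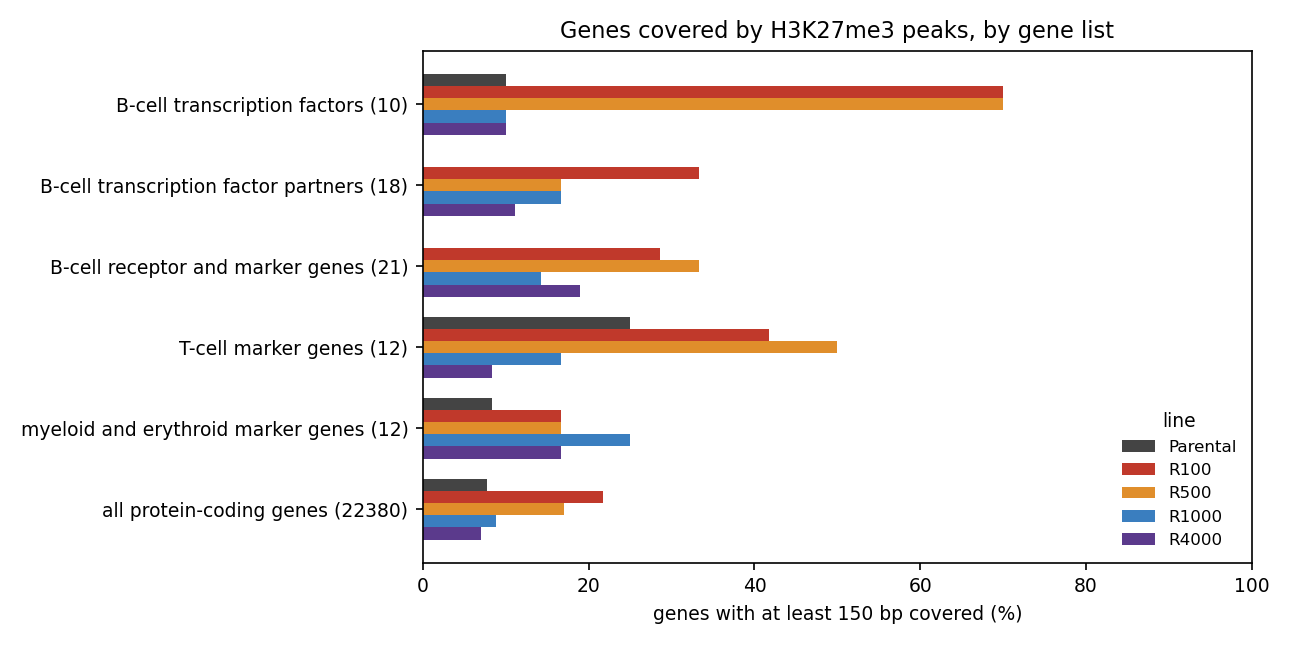
Share of genes (%) with at least 150 bp covered by H3K27me3 peaks, by gene list (number of genes in brackets) and line (bar colour), 1 list per line. The 10 B-cell transcription factor genes reach 7 of 10 in R100 and R500, and both other B-cell lists have no bar in the Parental line.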

How the data were processed

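H3K27me3 was analysed in 5 of the 10 samples, and the 5 RRBS samples were not analysed here. The authors precipitated chromatin with an antibody to H3K27me3, sequenced 50-bp reads on an Illumina HiSeq 2000 and defined peaks by a Poisson comparison with input DNA over genomic windows. The submitters' processing notes name Bowtie and mm9. The threshold of the lists and the pooling of replicates are not given in the sources used here. The deposited values are peak positions in 3 columns, without a height or score. The largest position on each of 20 chromosomes lay within its length in NCBIM37.

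Repeated entries were removed, and covered bases were computed in Python 3.11.15 (numpy 2.4.6, pandas 2.3.3). All 50 values equalled those of bedtools 2.31.1, and the step was tested on simulated data, where 0 of 1000 windows differed from a base-by-base count. Sequence was read with pysam 0.24.0, and figures were drawn with matplotlib 3.10.9. Coding transcripts are those annotated as protein-coding. With 1 list per line no test was made, and the calls are thresholds of 150 bp.

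The 10 genes, the gene lists and the thresholds were chosen with earlier results of these data known. All 10 genes are named, together with the 3 genes of each list with the most covered bases and any covered in all 5 lines, except 1 that is not reported here. Names given beyond that rule (Xbp1, Mef2c, Ikzf2, Cd79a and Ms4a1) were chosen after their values were seen. Of 22 receptor and marker symbols, 21 were looked up. Alternatives were other windows, wider peaks, lists of equal number, other minimums, bases outside other genes and all annotated genes.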

Additional observations from a re-analysis of the deposited data

Results flagged for a closer look

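Among the 10 genes only Bcl6 had covered bases in the Parental line, so only there could a resistant line lie below it. At Bcl6 the resistant lines lay on both sides of the Parental line by at least 150 bp. R4000 differed from the Parental line by -200 bp, whereas R100 had 450 bp more, R500 had 550 bp more and R1000 had 50 bp more. The opposite directions were not tested, since each line has 1 list, and the R4000 list is the shortest of the 5.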

How the results depend on the processing

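In the 5 kb upstream of the TSS alone, 1 gene each was covered in R100 and R500 and 0 in R4000, 0 genes in R100 and R500 had at least 150 bp more than the Parental line, and the summed bases were 2, 1, 0.8 and 0.2 times the Parental sum in R100, R500, R1000 and R4000. With peaks at least 500 bp wide, 2 genes were covered in R100 and 1 in R500, and 0 in each of the Parental, R1000 and R4000 lines, against 1.63%, 6.43%, 5.83%, 2.02% and 1.3% of all protein-coding genes in the order of the lines. By that setting 2 genes in R100 and 1 in R500 had more bases than the Parental line, none (0) had fewer in R4000, and no ratio could be formed. With the 6820 widest peaks of each list, 3 genes in R100 and 4 in R500 were covered and as many had more bases, and both ratios were 2.43. With any covered base as the call, 5 genes in R1000 and 6 in R4000 were covered (16.1% and 14.0% of all protein-coding genes). With at least 500 bp, 3 were covered in R100 and 1 in R500 (9.96% and 8.87% of all). Over all annotated genes, 5.82%, 15.8%, 12.7%, 6.63% and 5.39% were covered in the order of the lines. In peaks at least 100 bp wide, an alternative chosen after seeing the data, 4 genes in R500 were covered and 4 had more bases. By that setting R100 had 6 genes covered, and the shares of all protein-coding genes were 19.9% in R100 and 15.8% in R500. The counts of genes covered within 2 kb of any coding transcript start, also added later, were 7 in R100 and in R500 (18.4% and 14.1% of all). Without Bcl6 no ratio could be formed, since the Parental sum is 0. Beyond the smaller windows, lists and minimums themselves, the cause of these shifts was not tested. In all, 83 of the 117 values of counts, ratios and shares recomputed stayed within 1.5 times of the values reported or, for shares, within the 95% Wilson interval. Some of these could hardly move. The counts of genes with fewer bases in R100, R500 and R1000 were 0 wherever recomputed, and no gene but Bcl6 had a Parental base to lose. The shares over all annotated genes all moved.

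No paired analysis was possible because each line has 1 list. The unknown depth limits every comparison between lines, and 0 covered bases says only that no peak was listed.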

Other observations

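Genes of other blood lineages were also drawn by symbol. In the Parental line, 9 of 12 T-cell genes and 9 of 12 myeloid and erythroid genes had no covered base. In each list 3 of 12 thus had one, against 12.9% of all protein-coding genes. Of 12 T-cell genes, 5 were covered in R100 and 6 in R500, against 3 in the Parental line, 2 in R1000 and 1 in R4000. In the order of the lines these are 25%, 41.7%, 50%, 16.7% and 8.33%, against 7.67%, 21.7%, 17.0%, 8.86% and 7.05% of all protein-coding genes. Gata3, which directs T-cell development, had 1800, 5650, 6100, 1200 and 400 bp in the order of the lines and was covered in all 5. Tcf7, the Wnt-responsive factor of early T cells, had 450, 1850, 1100, 200 and 100 bp. Cd4, the co-receptor of helper T cells, had 200, 700, 150, 0 and 0 bp. All 3 thus had fewer covered bases in R4000 than in the Parental line, as did Bcl6. No other gene of the T-cell list had a Parental base, and over all protein-coding genes R4000 had 0.76 times the Parental bases. The other 9 B-cell factor genes had no Parental base from which to be lower.

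Of 12 myeloid and erythroid genes, 3 were covered in R1000 and 2 in each of R100, R500 and R4000, against 1 in the Parental line. These are 8.33%, 16.7%, 16.7%, 25% and 16.7% in the order of the lines, near or below the shares of all genes in the Parental, R100 and R500 lines. Cd14, a receptor of monocytes for bacterial lipopolysaccharide, had 1600, 2000, 1723, 1673 and 1000 bp and was also covered in all 5 lines. Epor, the erythropoietin receptor gene, had 100, 1200, 400, 150 and 200 bp. Cebpe, a factor of granulocytes, had 0, 50, 50, 150 and 0 bp. At 7 of these 12 genes no peak was called in any line, against 57.2% of all protein-coding genes.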
